A study of Mus musculus with 18 samples.

Results

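NRF2 (gene Nfe2l2) is the transcription factor that raises antioxidant and detoxifying enzymes when cells meet oxidants or electrophiles. The 10 genes described here are Nfe2l2 itself, its inhibitor Keap1 and 8 genes known as its targets, namely Nqo1, Hmox1, Gclm, Gclc, Txnrd1, Srxn1, Slc7a11 and Gsr. They were taken by symbol, out of 55401 genes in the count files, and all 10 passed the filter on low counts that left 14688 genes for testing.

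The mRNA of NIH/3T3, a fibroblast line from mouse embryo bought from ATCC, was sequenced in 3 wild-type (WT) libraries and 3 libraries of an XPO4 knockout (KO) line. XPO4 is exportin 4, a nuclear export receptor, and the KO line was made with CRISPR-Cas9, with both copies of the gene carrying the same frameshift edit. All cells grew in DMEM with serum and no oxidant or other treatment is named for them. There was 1 KO line, so the loss of XPO4 and anything else that sets this line apart cannot be told apart. Another 12 libraries held circular RNA (circRNA) after RNase R digestion of linear RNA, 2 for each genotype from the nucleus, the cytoplasm and the whole cell.

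Several features of the libraries bear on every direction given here. In all 6 mRNA files the heading of the count column gave the opposite genotype to the sample's title, and groups here follow the titles. If the headings were right, each KO against WT difference in mRNA below would change sign, while the circRNA files carry no such heading. The mRNA of Xpo4 did not settle this, with FPKM of 3.08, 2.93 and 2.89 in WT and of 3.72, 2.62 and 3.77 in KO (log2 fold change 0.18 ± 0.11 SE, edgeR adjusted p = 0.193). Without KO replicate 2 the value of Xpo4 was 0.34 (adjusted p = 0.000252), and gene counts do not show a frameshift. The chromosome Y genes Ddx3y, Eif2s3y, Kdm5d and Uty had together 0 reads in each WT library and 1059 to 1208 in each KO library. Circles of Uty, in contrast, were found in the whole-cell circRNA of WT (10 and 12 junction reads) and of KO (19 and 24). The same circles had 0 reads in each cytoplasmic and nuclear library of both genotypes. The cytoplasmic libraries were no shallower than the whole-cell ones, at 50629 to 81941 junction reads. KO replicate 2 stood farthest from its group, with a chi-square per gene of 10.3 and 12 against the other KO libraries, where all other replicate pairs lay between 3.05 and 5.01. Counted reads ranged from 16974062 to 22057323 per library. Fibroblast markers were high in both genotypes, with summed FPKM of 2831 to 2979 in WT and 2794 to 3008 in KO over 10 genes. The sums hide changes of single markers, from a log2 fold change of -0.34 (Col1a1) to 0.86 (Thy1). By the test described below 9 of the 10 passed, 5 higher and 4 lower in KO, against 48.7% of all tested genes, 25.1% higher and 23.6% lower. The 5 epithelial markers summed to 2.62 to 2.96 in WT and 0.298 to 0.674 in KO, nearly all from Krt14, with Epcam and Cldn4 at 0. The 8 blood and immune markers summed to 4.403 to 6.351 in WT and 3.82 to 4.59 in KO, with Cd3e and Hbb-bs at 0. Within this list Ptprc (log2 fold change -1.78, adjusted p = 1.03e-05) and Cd68 (-0.71, adjusted p = 0.00854) were lower in KO and Lyz2 (2.64, adjusted p = 0.00127) higher, from 1 to 3 reads in WT and 10 to 13 in KO, and Hba-a1 had 0 reads in each WT library and 6 to 8 in each KO library. The RNA extraction text in the labels speaks of peripheral blood, although every sample is labelled as the cell line. The 4 endothelial markers summed to 0.203 to 0.219 in WT and 0.136 to 0.244 in KO. The part of such other cells in the results below was not tested.

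In resting cells KEAP1 holds NRF2 for ubiquitination by a CUL3 ligase, so that NRF2 protein is degraded as it is made. Oxidants and electrophiles modify cysteines of KEAP1, NRF2 protein then builds up, pairs with a small MAF protein and binds antioxidant response elements near its targets. The pathway is therefore governed largely at the protein level, which was not measured here. Its targets make glutathione (Gclc and Gclm), bring in cystine for it (Slc7a11), keep glutathione and thioredoxin reduced (Gsr, Txnrd1), repair oxidised peroxiredoxins (Srxn1), reduce quinones (Nqo1) and break down haem (Hmox1).

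The antioxidant response element is the sequence that NRF2 binds, although the genes here were taken by symbol and not by this sequence. Its core, TGACNNNGC, was searched on both strands from 250 bases before to 50 bases after each RefSeq start site on GRCm38.p6. Of the 10 genes, 7 had such a promoter window in the table used, with 3 windows for Txnrd1; Hmox1, Gclc and Gsr were not analysed here. The core was present for 4 of these 7 genes, which had 9 windows together, with 1 match among the 3 windows of Txnrd1. Over all 32851 promoter windows it was present in 12.4%, a share counted per window and not per gene. The matches are shown because they let the reader see which bases vary between genes, with 8 flanking bases on each side, in the direction of transcription and with the match in capitals.
Nfe2l2, chr2:75704887-75704911, minus strand: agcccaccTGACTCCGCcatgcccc
Gclm, chr3:122245415-122245439, plus strand: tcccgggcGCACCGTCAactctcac
Txnrd1, chr10:82859106-82859130, plus strand: ggatttttGCTTTGTCAttctgaca
Srxn1, chr2:152105544-152105568, plus strand: agtgggcaGCTAGGTCAgagtgaga
The match of Nfe2l2 began 240 bases before the start site and read in the direction of the gene. Those of Gclm (134 bases before), Txnrd1 (92 bases before) and Srxn1 (from base 29 of the transcript) lay on the opposite strand, so the capitals show the core reversed and complemented. The windows of Keap1, Nqo1 and Slc7a11 held no match. The form that overlaps an AP-1 site, TGACTCAGC, was in no window of the 7 genes and in 0.454% of all windows. A match to the core is not by itself a bound site, and binding was not measured. Sequence outside these windows was not searched, so a gene without a match may have an element elsewhere.

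In KO, Srxn1, Txnrd1 and Gclm were higher and Slc7a11, Hmox1, Gclc and Nqo1 were lower, so the targets moved in both directions. Of the 10 genes, 7 passed the test (edgeR's quasi-likelihood test, Benjamini-Hochberg adjusted p under 0.05 over all genes tested), 3 of them higher and 4 lower in KO. Across all tested genes 48.7% passed, 25.1% higher and 23.6% lower. The FPKM (fragments counted, scaled to exon length and to the counted reads of the library) of the KO libraries lay wholly above or wholly below that of the WT libraries for 8 genes, 4 above and 4 below, against 57.8% of all tested genes. The median log2 fold change was -0.02 over the 10 genes and -0.0029 over all genes tested. Without KO replicate 2, 6 of the 10 passed, with Gclm lost. As these are bulk samples, fewer cells that express a gene and less of its RNA per cell cannot be told apart.

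**Figure D1:**
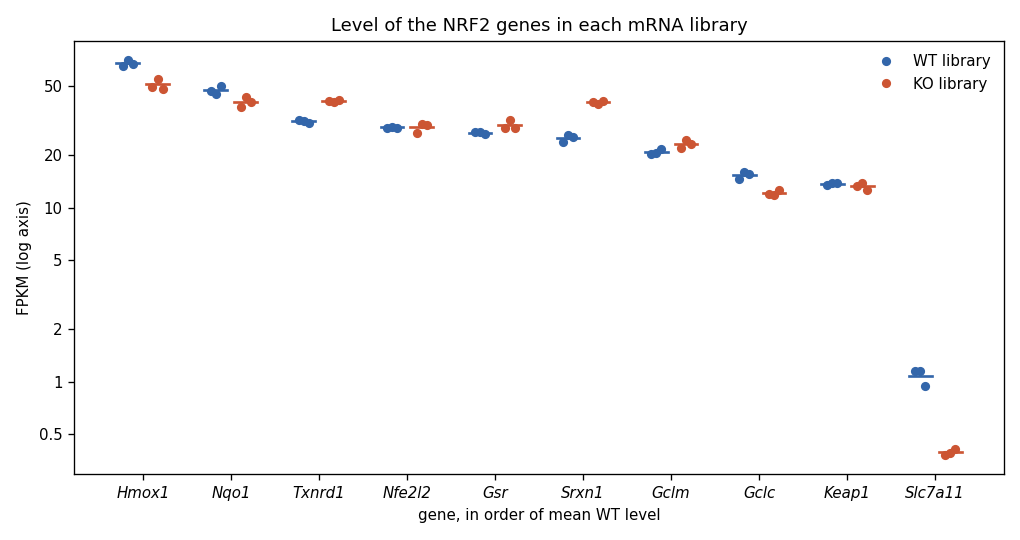
FPKM (vertical, log axis) of each gene (horizontal, in order of its mean in WT), with a point for each library and a line at the mean of the 3 libraries of a genotype. The points of WT and KO overlap for Nfe2l2 and Keap1 and are separate for the other 8 genes, with Slc7a11 far below the rest in both genotypes.

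The regulators themselves did not pass the test. Nfe2l2 (chromosome 2, 75675513 to 75704641) had FPKM of 28.7, 29.0 and 28.8 in WT and 26.9, 30.1 and 29.8 in KO. The KO libraries lay on both sides of the WT libraries, and the log2 fold change was 0.0026 ± 0.060 (SE, adjusted p = 0.976). Keap1 (chromosome 9, 21229730 to 21239361), the substrate adaptor that presents NRF2 to its ligase, had 13.4, 13.8 and 13.9 in WT and 13.3, 13.9 and 12.6 in KO. These values overlapped too, with a log2 fold change of -0.05 ± 0.061 and an adjusted p of 0.525. An antisense gene, Gm16754, covers 10.9% of the exon bases of Keap1, and since the counting used no strand, reads there could not be assigned to either gene.

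Srxn1, which encodes sulfiredoxin and restores over-oxidised peroxiredoxins, rose more than any of the other 9 genes. Its FPKM was 23.6, 26.0 and 25.3 in the WT libraries and 40.4, 39.4 and 40.8 in the KO libraries. All KO values lay far above all WT values, a 1.61-fold difference (log2 fold change 0.68 ± 0.057 SE, adjusted p = 5.47e-07). The gene lies on chromosome 2 (152105516 to 152111376), whose other tested genes had a median log2 fold change of 0.02. Among all tested genes, 81.8% had a smaller absolute log2 fold change than Srxn1.

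Txnrd1, the cytosolic thioredoxin reductase, rose as well. It had FPKM of 31.8, 31.2 and 30.6 in WT and 41.0, 40.4 and 41.2 in KO, and the spread within each genotype was small beside the gap. The log2 fold change was 0.39 ± 0.050 (SE, adjusted p = 2.82e-05). Txnrd1 lies on chromosome 10 (82833951 to 82897712), where the other tested genes had a median log2 fold change of 0.45 and 81.6% of those tested on this chromosome were higher in KO. The log2 fold change of Txnrd1 minus that median was -0.06, and the part of the chromosome in its rise was not tested.

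For Gclm, the modifier subunit of glutamate-cysteine ligase, the FPKM was 20.2, 20.4 and 21.7 in WT and 22.0, 24.4 and 23.3 in KO. The groups did not overlap, but the lowest KO library was close to the highest WT library. The log2 fold change of 0.16 ± 0.061 passed narrowly (adjusted p = 0.0403), and the other tested genes of chromosome 3, on which it lies (122245557 to 122270732), had a median of 0.16. The call was lost without WT replicate 1 (adjusted p = 0.144), WT replicate 2 (0.13), KO replicate 2 (0.0557) or KO replicate 3 (0.0577). Gm17494, an antisense gene, shares 4.71% of its exon bases.

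Gclc, the catalytic subunit of the same ligase and the enzyme that limits glutathione synthesis, went the other way. It had FPKM of 14.6, 16.0 and 15.6 in WT and 12.0, 11.8 and 12.6 in KO, all KO values below all WT values. Its log2 fold change was -0.35 ± 0.063 (SE, adjusted p = 0.000544), a 1.27-fold higher level in WT, and the other tested genes of chromosome 9 had a median of 0.02. The fall of Gclc was larger than the spread between libraries, whereas the gap between the groups of Gclm was smaller than the range within either, and its call rests on the libraries named above. Gclc lies at 77754535 to 77794485 of chromosome 9.

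Slc7a11 (xCT), the light chain of the transporter that exchanges cystine for glutamate, showed the largest change of the 10 genes. Counts of 321, 313 and 289 in WT faced 95, 97 and 98 in KO, or FPKM of 1.16, 1.15 and 0.941 in WT and 0.383, 0.389 and 0.415 in KO. The KO libraries lay close together and far below the WT libraries, which held 2.74-fold more (log2 fold change -1.45 ± 0.12 SE, adjusted p = 6.69e-07). Among all tested genes, 94.7% had a smaller absolute log2 fold change. The other tested genes of chromosome 3, where it lies (49892526 to 50443614), had a median of 0.16, so Slc7a11 and Gclm differed in direction on the same chromosome. Its FPKM is per 13922 bases of merged exons, the most of the 10 genes, which lowers the level for any isoform that uses only some of them. Slc3a2, the heavy chain of the same transporter, had FPKM of 52.6, 54.6 and 56.1 in WT and 56.5, 58.9 and 53.2 in KO (log2 fold change 0.04 ± 0.059, adjusted p = 0.567).

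Slc7a11 is known as a target of ATF4 as well as of NRF2, and its promoter is shown for the element of that factor. ATF4, the effector of the integrated stress response, binds CEBP-ATF response elements, whose core TGATGCAA was searched on both strands in the same windows, a motif chosen after the values were seen. The window of Slc7a11 held it 2 times, against no match in the windows of the other 6 genes and a match in 0.895% of all windows. The matches, in capitals, lie 66 and 47 bases before the start site, and the second is on the opposite strand.
Slc7a11, chr3:50443645-50443687, minus strand: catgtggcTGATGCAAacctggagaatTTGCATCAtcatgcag
Of the 15 ATF4 and integrated stress genes examined beside it, 14 had a window and 2 of these, Atf3 and Chac1, held the motif. Here too only these windows were searched, and binding at a match was not measured.

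Hmox1, the inducible haem oxygenase, had the highest level of the 10 genes in both genotypes and fell in KO. Its FPKM was 64.6, 69.9 and 66.5 in WT and 49.4, 54.9 and 48.0 in KO, without overlap. The WT libraries held 1.32-fold more (log2 fold change -0.40 ± 0.066 SE, adjusted p = 0.000226). Nqo1, the quinone reductase often used as a readout of NRF2, had 46.8, 44.6 and 49.6 in WT and 37.5, 42.9 and 40.1 in KO. Here the highest KO library was close to the lowest WT library, and the log2 fold change was -0.23 ± 0.068 (adjusted p = 0.0136). The call of Nqo1 was lost without WT replicate 3 (adjusted p = 0.0777) or KO replicate 1 (0.089). Both genes lie on chromosome 8, Hmox1 at 75093621 to 75100589 and Nqo1 at 107388225 to 107403206, and the other tested genes there had a median log2 fold change of 0.04.

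Gsr, glutathione reductase, lies on the same chromosome (33652523 to 33698163) and did not pass. It had FPKM of 27.3, 27.0 and 26.3 in WT and 28.5, 31.6 and 28.6 in KO. All KO values lay above all WT values, but the log2 fold change was only 0.14 ± 0.062 (adjusted p = 0.0817), and 0.09 without KO replicate 2. Hmox1 and Nqo1 fell on this chromosome, and the value of Gsr was above 0.

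**Figure D2:**
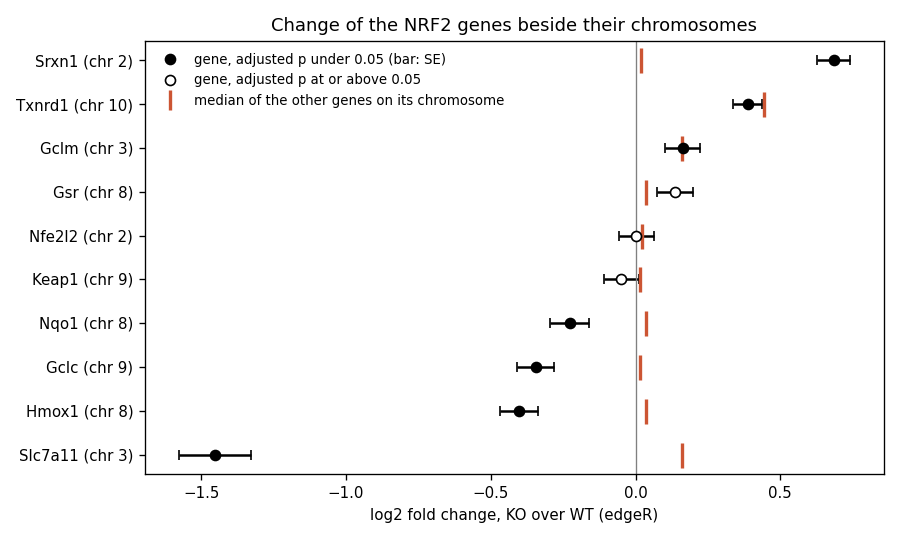
Log2 fold change of KO over WT (horizontal, edgeR, bars give the SE) for each gene (vertical, with its chromosome), beside the median of the other tested genes on the same chromosome (red line). Txnrd1 at 0.39 and Gclm at 0.16 sit near their chromosome medians of 0.45 and 0.16, whereas Srxn1 at 0.68 and Slc7a11 at -1.45 stand far from theirs.

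The order of levels, per exon length, was similar at its ends and changed in the middle. In WT it ran Hmox1 (mean FPKM 67.0 ± 2.67 SD, n = 3), Nqo1, Txnrd1, Nfe2l2, Gsr, Srxn1, Gclm, Gclc, Keap1 and Slc7a11 (1.08 ± 0.124), and the ranges of no neighbours overlapped. In KO, Hmox1 (50.8 ± 3.68) still led and Slc7a11 (0.396 ± 0.0169) was last. Srxn1 moved from the sixth place to the third, where its range overlapped those of Txnrd1 and Nqo1. Gsr and Nfe2l2 also overlapped in KO, and Keap1 stood above Gclc.

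Among the other genes of the KEAP1-NRF2 switch, calls went in both directions. The small MAF genes Maff and Mafk and the KEAP1 binder Sqstm1 were higher in KO, and Cul3 and Btrc, given below, were lower with weak calls. Of 13 regulators and partners, all tested, 5 passed (38.5%, against 48.7% of all genes), 3 higher and 2 lower in KO, with a median log2 fold change of -0.07. Without KO replicate 2, 6 of the 13 passed, 4 higher and 2 lower, and the difference from the share of all genes was not tested. The small MAF proteins are the DNA-binding partners of NRF2. Maff rose, with FPKM of 6.90, 6.81 and 7.62 in WT and 10.1, 12.0 and 9.06 in KO (log2 fold change 0.55 ± 0.11 SE, adjusted p = 0.000804). Mafk rose from 4.07, 4.82 and 4.17 to 5.44, 5.65 and 5.23 (0.32 ± 0.092, adjusted p = 0.0111). Mafg, at 23.5, 22.2 and 22.1 against 26.3, 22.3 and 25.1, did not pass (0.12 ± 0.064, adjusted p = 0.141), but did without KO replicate 2 (0.19, adjusted p = 0.00421). Sqstm1 (p62), which binds KEAP1 and takes it to autophagy, rose from 156, 159 and 166 to 190, 189 and 179 (0.22 ± 0.053, adjusted p = 0.00423).

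The genes for NRF2 degradation changed little. Cul3, the scaffold of the KEAP1 ligase, was lower in KO by a log2 fold change of -0.15 ± 0.056 (adjusted p = 0.0356), on chromosome 1, whose other tested genes had a median of -0.21. Btrc, the adaptor of a second NRF2 ligase, was lower by -0.19 ± 0.066 (adjusted p = 0.0288). Both calls were weak. Cul3 lost its call without WT replicate 2 (adjusted p = 0.141), WT replicate 3 (0.105) or KO replicate 1 (0.162), and with no filter on low counts (0.0606) or with DESeq2 (0.0509). For Btrc this happened without WT replicate 1 (0.0796), WT replicate 2 (0.0951), KO replicate 1 (0.0915) or KO replicate 3 (0.08), with no filter (0.0782) and with DESeq2 (0.119). The ligase subunit Rbx1 (log2 fold change 0.0081), the kinase Gsk3b (-0.07) and Dpp3 (-0.09), a KEAP1-binding peptidase, did not pass, and Rbx1 and Gsk3b changed sign without KO replicate 2 (-0.02 and 0.02). Bach1, a repressor that competes with NRF2 at its elements, had a log2 fold change of -0.18 ± 0.082 (adjusted p = 0.0891), which passed without KO replicate 1 (-0.24, adjusted p = 0.0441), and Bach2 of -0.03 (adjusted p = 0.829). The related factors Nfe2l1 (-0.12, adjusted p = 0.104) and Nfe2l3 (-1.05, adjusted p = 0.0992, FPKM of 0.0566 to 0.366) did not pass either, although Nfe2l3 did without KO replicate 3 (-1.79, adjusted p = 0.0235).

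The 8 lists around the 10 genes hold 98 genes counted once, namely 7 lists of antioxidant genes and their regulators and the ATF4 and integrated stress list. Of 91 tested genes, 57 passed (62.6%), 22 higher and 35 lower in KO, with a median log2 fold change of -0.09. Over all genes 48.7% passed, 25.1% higher and 23.6% lower, and the counts per list below are to be read against these shares. The 7 lists other than the ATF4 and integrated stress list, a split added after the values were seen, had 47 of 80 tested genes past the test (58.8%). Of these 47, 20 were higher and 27 lower, and the median log2 fold change of the 80 was -0.03. Among 21 glutathione enzymes, 15 were tested and 5 rose and 5 fell. Gstm2, a glutathione S-transferase, had FPKM of 13.9, 11.5 and 13.4 in WT and 35.5, 41.6 and 39.5 in KO (log2 fold change 1.59 ± 0.086, adjusted p = 8.01e-09). Its neighbour Gstm1 rose by 0.75 ± 0.077 (adjusted p = 3.72e-06), and since Gstm genes are near-identical copies in places, their counts are uncertain to the extent that reads were shared. Gpx4, the peroxidase of lipid peroxides, rose by 0.51 ± 0.082 (adjusted p = 0.000191), on chromosome 10 with its median of 0.44. Chac1, which degrades glutathione, had 9.80, 9.17 and 9.75 in WT and 5.49, 4.98 and 5.36 in KO (-0.86 ± 0.10, adjusted p = 1.22e-05).

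Of 14 thioredoxin and peroxiredoxin enzymes, 3 rose and 5 fell. Sesn2 fell (log2 fold change -0.72 ± 0.062, adjusted p = 7.23e-07) and Sesn1 rose (0.62 ± 0.077, adjusted p = 1.85e-05, on chromosome 10), both being stress-induced sestrins. Txnip, the thioredoxin inhibitor, fell (-0.60 ± 0.057, adjusted p = 1.90e-06), as did Txnrd3 (-0.50 ± 0.086, adjusted p = 0.000337), a relative of Txnrd1. Of 9 NADPH-producing enzymes, 2 rose and 4 fell. Malic enzyme Me1 rose from 15.1, 15.2 and 14.8 to 22.2, 21.8 and 21.9 (0.54 ± 0.054, adjusted p = 2.65e-06), and Taldo1 of the pentose phosphate pathway by 0.23 (adjusted p = 0.0226, and 0.105 without WT replicate 1). The oxidative enzymes of that pathway, G6pdx (-0.21, adjusted p = 0.00868, and 0.0589 without KO replicate 1) and Pgd (-0.25, adjusted p = 0.0014), were lower.

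Of 10 haem and iron genes, 4 rose and 2 fell. The haem-binding gene Hebp1 (log2 fold change 0.55, adjusted p = 0.000299), the ferritin light chain Ftl1 (0.51, adjusted p = 0.0001) and the biliverdin reductase Blvra (0.36, adjusted p = 0.00718) rose, and the transferrin receptor Tfrc fell (-0.44, adjusted p = 0.000186). The ferritin heavy chain Fth1 went against the light chain and fell (-0.25, adjusted p = 0.00337). Ferritin genes have many pseudogene copies, which leaves the counts of Ftl1 and Fth1 uncertain. Detoxifying enzymes and transporters had 2 higher and 7 lower among 15 tested of 16. The export pumps Abcc3 (-2.08 ± 0.21, adjusted p = 3.53e-06) and Abcc4 (-1.50 ± 0.10, adjusted p = 6.42e-08) fell, as did the aldehyde dehydrogenase Aldh3a1, from 12.9, 12.5 and 13.9 to 3.87, 3.85 and 2.52 (-1.94 ± 0.13, adjusted p = 8.23e-08). Ugt1a7c, a glucuronosyltransferase that shares exons with the other Ugt1a genes, had -0.65 (adjusted p = 0.000499). Among 4 superoxide dismutases and catalase, Sod2, the mitochondrial enzyme, fell from 18.4, 18.8 and 18.5 to 8.23, 9.12 and 8.84 (-1.09 ± 0.059, adjusted p = 6.89e-09), Cat fell (-0.52, adjusted p = 6.93e-06) and Sod3 rose (0.36, adjusted p = 0.00695).

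The ATF4 and integrated stress list, taken beside Slc7a11, had 13 of 15 genes past the test (86.7%, against 48.7% of all genes), 2 higher and 11 lower in KO, where 25.1% of all genes were higher and 23.6% lower. Its median log2 fold change was -0.34. The list was taken with results of these data known, so its direction is no independent evidence. The fall included Atf3 (log2 fold change -1.19 ± 0.18, adjusted p = 0.000121), a stress-induced factor, Trib3 (-0.995 ± 0.11, adjusted p = 9.04e-06), a pseudokinase, Chac1, given above, and Slc7a5 (-0.78 ± 0.056, adjusted p = 1.27e-07), an amino acid transporter. Atf4 itself was lower by a log2 fold change of -0.21 ± 0.064 (adjusted p = 0.0148). Its FPKM was 214, 227 and 224 in WT and 183, 209 and 183 in KO. The 2 genes of the list that were higher were Ddit3 (0.39) and Ddit4 (0.24). Both lie on chromosome 10 with its median of 0.45, as does Shmt2 (0.02, adjusted p = 0.796). These 3 genes and Atf4 were named after their values were seen. Without KO replicate 2 the list still had 13 past the test, 2 higher and 11 lower.

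**Figure D3:**
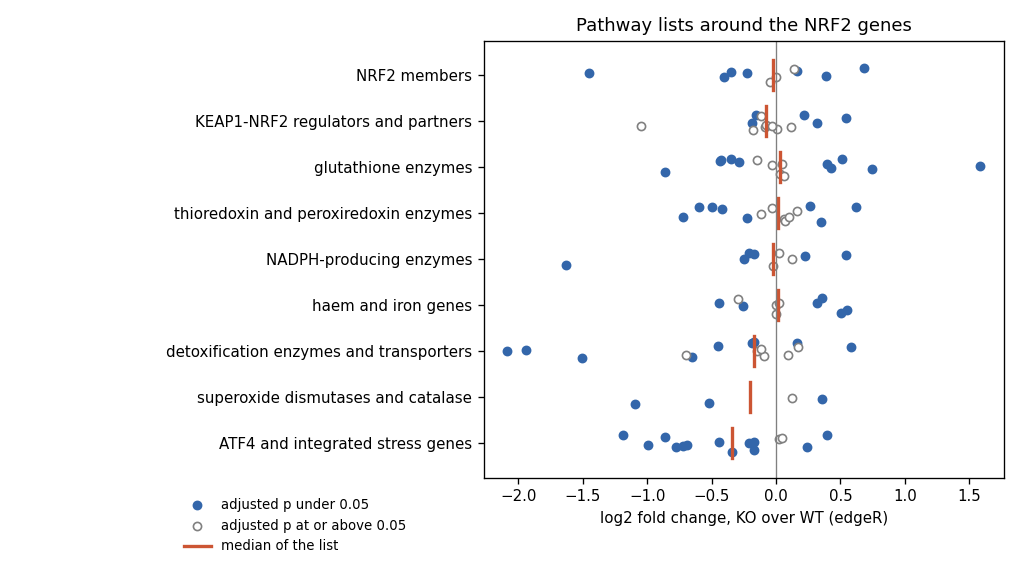
Log2 fold change of KO over WT (horizontal, edgeR) of each tested gene, a point per gene, in the 10 NRF2 genes and the 8 pathway lists (vertical), with filled points past the test and a red line at the median of the list. Filled points stand on both sides of 0 in every list, and the ATF4 list has the lowest median, -0.34.

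Circles of these genes were a second readout, given without a test since there were 2 libraries for each genotype and fraction. There were 6 circles in 5 of the 10 genes, among 16171 circRNAs listed in any of the 12 libraries, and all 6 had both ends on exon edges with AG before and GT after them. None of them had a read in the 4 nuclear libraries, whose depth of 2189 to 4383 junction reads was far under the 50341 to 81941 of the others. The absence of any single circle there was therefore not informative, and the absence of all 6 together was not tested against depth. The junctions of 4 circles are shown because they tell the circles from the mRNA, with the last 15 bases of the circle in lower case and its first 15 in capitals.
Keap1, exon 2, chr9:21237071-21237756: atgcacttcggggagGCCCCTAACGGCTAG
Gclc, exons 2 to 3, chr9:77775079-77776308: cacttcattccccagGTGGAGTACATGTTG
Gclc, exons 2 to 4, chr9:77775079-77779635: gcacccccgcttcggGTGGAGTACATGTTG
Txnrd1, exons 9 to 12, chr10:82883914-82885293: gaagaaaatattgaaATTGAACAGATCGAA
The circles of Gclc share their first bases and differ in their last.

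The Keap1 circle, a single exon of 686 bases, had 8 and 7 junction reads in the cytoplasm of WT and 14 and 10 in that of KO, and 4 and 3 against 1 and 0 in whole cells. The shorter Gclc circle had 5 and 10 reads in the WT cytoplasm, 0 and 0 in the KO cytoplasm and none in any whole-cell library. A count of 0 allows up to 3 reads in a library, for counting error only, so the lower WT library was not far above that limit. The longer Gclc circle had 12 and 7 in the WT cytoplasm, 12 and 11 in the KO cytoplasm, 4 and 10 in WT whole cells and 16 and 18 in KO whole cells. In WT whole cells the Txnrd1 circle had 9 and 7 reads, against 1 and 1 in KO whole cells and none in the cytoplasm. Its mRNA was higher in KO by the titles and would be lower by the headings of the mRNA files, so circle and mRNA cannot be set against each other. Gsr (exons 11 to 12) had 2 and 5 in the WT cytoplasm, 2 and 2 in the KO cytoplasm, 1 and 1 in WT whole cells and 5 and 6 in KO whole cells. Nqo1 (exons 2 to 4) had 0 and 2 in the WT cytoplasm and 3 and 3 in the KO cytoplasm. Summed over the 6 circles, the WT cytoplasm had 27 and 31 reads, the KO cytoplasm 31 and 26, WT whole cells 18 and 21, and KO whole cells 23 and 25. No circle of Nfe2l2, Hmox1, Gclm, Srxn1 or Slc7a11 was listed.

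**Figure D4:**
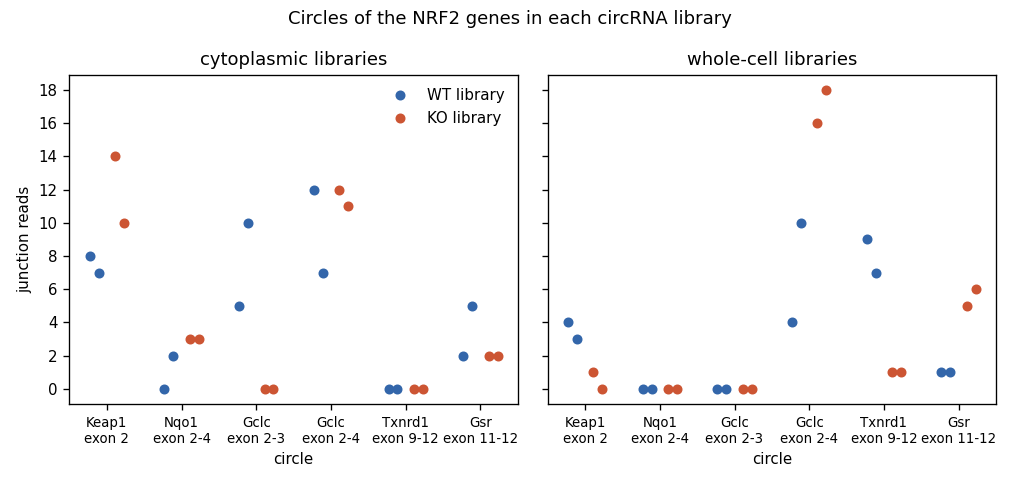
Junction reads (vertical) of each of the 6 circles (horizontal) in the cytoplasmic and whole-cell circRNA libraries, a point per library, 2 for each genotype. The shorter Gclc circle was listed only in the WT cytoplasm, with 5 and 10 reads, and the Txnrd1 circle had 9 and 7 reads in WT whole cells and 1 and 1 in KO whole cells.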

How the data were processed

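Total RNA of NIH/3T3 cells was depleted of rRNA and sequenced. The authors aligned mRNA reads to mm10 with HISAT2 and deposited raw counts per gene from featureCounts (version 2.0.0), without strand. For circRNA, after RNase R, they deposited counts of junction reads per circle from find_circ. Symbols were found for 55141 of 55401 gene IDs; where 2 IDs shared a symbol, that with more reads was used. Genes kept by filterByExpr (minimum count 10) entered the quasi-likelihood test of edgeR (glmQLFit and glmQLFTest after TMM; version 4.0.16, in R 4.3.3), with Benjamini-Hochberg adjustment over all genes tested and a threshold of 0.05. The SE of a log2 fold change was its size divided by the square root of the test's F. FPKM was computed from the counts, the merged exon length and the total counted reads. Alternatives were DESeq2 (version 1.42.0), other scalings, no filter, a replicate block and leaving out each library. The fit was also run on simulated counts, with far fewer changed genes than were called here and a fixed spread between libraries. That run does not bear on the calls in these data. Nothing says that the replicates were separate cultures, so p-values measure the spread between these libraries, which may be technical.

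The members and lists were chosen with earlier results of these data known. Named in the text are the 10 genes, Xpo4, all tested regulators and, in each list, up to 4 genes past the test with the largest absolute log2 fold change and a mean FPKM of at least 1 in the higher genotype. Slc3a2, Fth1, Atf4, Ddit3, Ddit4, Shmt2, the chromosome Y genes and single cell type markers stand outside this rule and were named after their values were seen. Sequences are from RefSeq (GRCm38). Tables and figures were made with Python 3.11.15, pandas 2.3.3 and matplotlib 3.10.9.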

Additional observations from a re-analysis of the deposited data

How the results depend on the processing

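The count of the 10 genes past the test was 7 with RLE size factors, total counted reads, no filter, DESeq2 and the replicate block, and 6 without any one library. Nqo1 lost its call in 2 of these 6 fits, with log2 fold changes from -0.28 to -0.17 when a library was left out, and Gclm in 4, from 0.12 to 0.21. Nfe2l2, which was not called, changed sign when a library was left out, from -0.0268 to 0.0621. Hmox1, Gclc, Txnrd1, Srxn1 and Slc7a11 kept their direction and passed in all 12 fits. Over all genes 6143 to 7397 passed when a library was left out, and 6400 with DESeq2. Same-numbered libraries did not deviate together (correlations 0.05, 0.03 and -0.08), so the numbers were not taken as pairs; with the replicate block 7124 genes, 7 of the 10 and 56 of the pathway genes passed. For the circles, the log2 ratio of KO over WT in the cytoplasm was -0.03 in reads and 0.50 per 100000 junction reads of the library. The KO libraries of this fraction held fewer reads, so no direction was given for it. In whole cells the ratio was 0.30 in reads and 0.37 per 100000 junction reads, and it was not tested. With 2 circRNA libraries per group and at most 18 reads per circle, counting error limits every circle value.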
